A study of Mus musculus with 4 samples.

Results

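The 8 genes described here serve CD1d lipid antigen presentation: Cd1d1, Ugcg, Psap, Hexa, Gla, Ctsl, Npc1 and Npc2. They were chosen by name for CD1d itself, for glycosphingolipid metabolism and for lysosomal lipid transfer and proteolysis. All 8 were found among the 11536 genes of the authors' deposited comparison, out of 43430 genes counted. They were measured by RNA-seq in CD4+CD8+ double-positive (DP) thymocytes sorted by flow cytometry from C57BL/6 mice. The 2 knockout (KO) libraries came from mice of genotype Uqcrfs1fl/fl; CD4-Cre+, which lose the Rieske protein of respiratory complex III in cells that express the Cre recombinase from the CD4 promoter, that is from about the DP stage onwards. The 2 control libraries carry the genotype label WT, whereas the series description speaks of heterozygous littermates, so WT is only a group name here, and the sources used here do not say whether these mice carried Cre, nor their age or sex. Each library stands for 1 mouse.

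CD1d is a protein related to MHC class I that holds lipids rather than peptides in its groove. DP thymocytes display it to each other, and this contact selects invariant natural killer T (iNKT) cells. CD1d travels from the surface into late endosomes and lysosomes, where glycosidases trim glycosphingolipids, saposins and Niemann-Pick C proteins move lipids between membranes and the groove, and cathepsins process the proteins involved. The design asks how DP cells, the stage at which iNKT cells are selected, respond to the loss of complex III.

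None of the 8 genes passed the test between KO and WT. Cathepsin L (Ctsl) had the smallest p, with a fitted difference of -9.39% between KO and WT. Cd1d1 was level with WT in 1 KO library and lower in the other. For Gla, Npc1 and Ugcg the ranges of KO and WT overlapped.

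The mouse genome holds a pair of CD1d genes, and their coding sequences are shown here because they decide which reads can be told apart. Cd1d1 (ENSMUSG00000028076, chromosome 3, minus strand, mm10 bases 86995834 to 86999441, 6 exons in its main coding transcript) lies beside Cd1d2 (plus strand, from 86986551 to 86989780), which GENCODE M21 annotates as a polymorphic pseudogene. The coding sequences, of 1011 and 1008 bases, are identical at 96.7% of 1008 aligned bases, with an unbroken identical run of 242 bases. Of all stretches of 50 bases in the main Cd1d1 transcript, 25.8% also occur in a Cd1d2 transcript. In the other direction the share is 40.7%. The ungapped 90 bases with the most differences, coding bases 375 to 464 of both genes, differ at 9 bases, printed in capitals:
Cd1d1: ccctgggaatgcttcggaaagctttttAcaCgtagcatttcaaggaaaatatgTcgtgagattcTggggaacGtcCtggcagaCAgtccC
Cd1d2: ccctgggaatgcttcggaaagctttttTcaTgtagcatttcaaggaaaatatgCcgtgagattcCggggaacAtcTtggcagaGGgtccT
Reads that align equally well to both genes are not counted for either where only unique alignments are kept, so the counts of both genes are uncertain. Entries that HTSeq set aside as not uniquely aligned made up 23.2% to 24.7% of those entries plus the unique reads in the 4 libraries. Whether each entry is a read or 1 of its alignments was not checked.

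RefSeq promoter windows (GRCm38.p6, from 250 bases before to 50 bases after the annotated start) were found for 6 members, Ugcg, Psap, Hexa, Gla, Ctsl and Npc2, and not for Cd1d1 and Npc1. Windows were searched on both strands for the E-box CACGTG, the core of the element that the lysosomal regulators TFEB and TFE3 bind. Gla held 2 copies, at 227 and 194 bases before the start, and Ctsl held 1, at 236 bases before its RefSeq start. That Ctsl window runs from 64370471 to 64370770, outside the counted gene, which begins at 64370306 on the minus strand. The Ctsl E-box is therefore placed from an annotated start upstream of the counted gene. Among 32851 windows of all genes, 7.15% held the E-box, and 8.09% of genes with a window had it. Both copies in Gla lie inside the longer match TCACGTGA, which 0.974% of all windows and 1.125% of genes with a window held. The GC box GGGCGG was found in 5 of the 6 members (Ugcg, Psap, Hexa, Gla and Npc2), against 38.2% of all genes with a window. The Hexa window, from 59539290 to 59539589, also lies outside the counted gene, which begins at 59539667 on the plus strand. The windows of the 2 genes with an E-box, the members with the lowest and the highest RNA level, are printed with the E-box in capitals, chr13:64370471-64370770 for Ctsl and chrX:134600956-134601255 for Gla, both read from the minus strand:
Ctsl: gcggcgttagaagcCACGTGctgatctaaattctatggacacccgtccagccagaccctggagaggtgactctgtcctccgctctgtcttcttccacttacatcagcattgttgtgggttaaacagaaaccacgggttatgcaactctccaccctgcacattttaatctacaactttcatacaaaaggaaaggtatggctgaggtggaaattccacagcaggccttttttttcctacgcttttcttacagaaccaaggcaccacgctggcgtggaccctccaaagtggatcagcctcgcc
Gla: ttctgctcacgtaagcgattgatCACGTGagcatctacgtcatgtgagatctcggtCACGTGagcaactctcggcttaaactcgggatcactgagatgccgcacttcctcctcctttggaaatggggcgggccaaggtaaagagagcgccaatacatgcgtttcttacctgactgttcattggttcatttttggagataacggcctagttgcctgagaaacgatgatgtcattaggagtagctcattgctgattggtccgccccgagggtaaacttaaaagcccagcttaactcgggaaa
These matches are a description of the letters and say nothing of what binds there.

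The libraries held 30408863 to 34080516 reads assigned to genes. Uqcrfs1, the targeted gene, had 61.4 and 57.2 CPM (counts scaled to TMM library sizes) in the WT pair against 15.6 and 18.6 CPM in the KO pair, which fits the labels. Of all 13281 genes tested with edgeR's quasi-likelihood test, 3 passed at a Benjamini-Hochberg adjusted p under 0.05, which is 0.0226%. All 9 DP markers were present, with a summed level of 16950 to 18090 CPM. Of these 5 were higher and 4 lower in KO, and 0 were called. Cd8a measured 3174 and 3225 CPM in the WT pair against 3002 and 2953 CPM in the KO pair. Its unadjusted p was under 0.05 (edgeR adjusted p = 0.589). Cd8b1 was also lower in both KO libraries (log2 change -0.09), and Arpp21 higher in both (0.07). Cd8a, Cd8b1 and Arpp21 were named after their values were seen. Over all tested genes 20.1% were lower and 20.4% higher without overlap. Some markers of other cells were higher in KO replicate 2 than in the other 3 libraries, and those values stand beside the results they touch.

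Levels of the members covered a wide range. Per kilobase of the main coding transcript, Ctsl was the most abundant at 901 to 1014 CPM per kb over the 4 libraries, and Psap followed at 382 to 415. Both stood above 99% of the 11075 tested genes with such a transcript, at the 99.8th and 99.2nd percentiles. Genes below the expression filter are not part of these percentiles. Npc2 stood at 53.2 to 56.7 CPM per kb. Cd1d1 (29.7 to 36.0) and Ugcg (29.2 to 32.3) came next, and their ranges over the libraries overlapped, so their order is not resolved. Npc1 stood at 24.0 to 25.6, Hexa at 10.04 to 12.1 and Gla at 2.04 to 2.497 CPM per kb, the last at the 20.1st percentile. Every other pair of neighbours in this order had ranges that did not overlap. Cd1d1 RNA was thus above the level of 76.2% of these tested genes. The length column of the deposited table equals the sum over all transcripts of a gene in 51.6% of genes with several transcripts, and the length of their merged exons in 0.543%. With it Cd1d1 drops to 9.53 to 11.5 CPM per kb and its range overlaps that of Hexa (10.75 to 12.9), so their order is not resolved, while Ctsl, Psap and Npc2 remain the top 3, so the middle of the order depends on the length used.

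**Figure D1:**
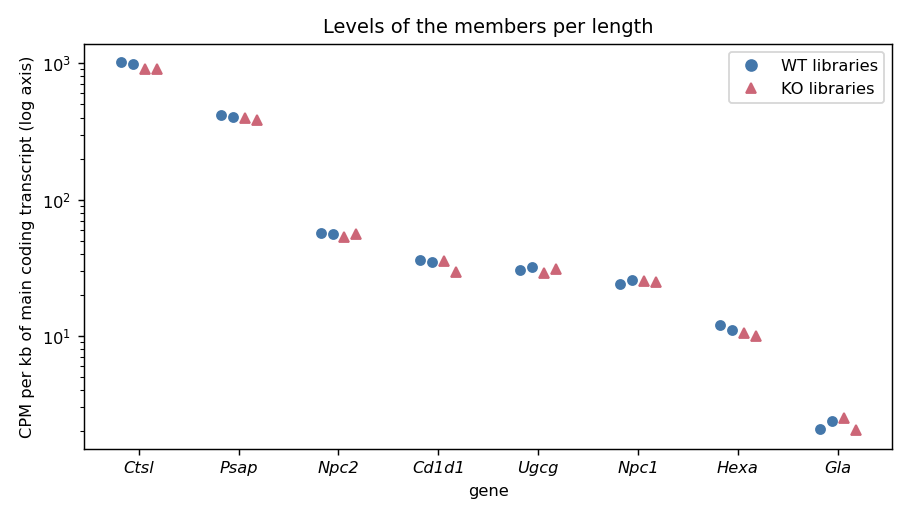
Level of each member in CPM per kb of its main coding transcript, on a log axis. Circles are the 2 WT libraries and triangles the 2 KO libraries; genes are ordered by mean. Ctsl and Psap stand far above the other 6 genes, and Gla is lowest at 2.04 to 2.497 CPM per kb.

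Cd1d1 encodes the heavy chain that presents lipids to iNKT cells. It measured 70.0 and 68.5 CPM in the WT pair against 69.3 and 57.8 CPM in the KO pair, from 1833 to 2363 counts per library. KO replicate 1 lay within the WT pair and KO replicate 2 below all others, so the groups overlapped. WT averaged 69.2 ± 1.06 CPM and KO 63.6 ± 8.16 CPM (SD, n = 2), and the log2 change was -0.12 (SE 0.08, edgeR adjusted p = 0.696). The 95% interval of the difference, -19.3% to 4.58%, covers both no change and a fall of nearly that first size. Without KO replicate 2 the log2 change was 0.0008, and without KO replicate 1 it was -0.26 (adjusted p = 0.516), so the value rests on 1 library. The exact Poisson interval for KO replicate 2, 55.2 to 60.5 CPM, did not reach that of KO replicate 1, 66.6 to 72.2 CPM. These intervals cover counting error only. In KO replicate 2 the invariant chain gene Cd74, which antigen-presenting cells express, stood at 14.3 CPM, against 3.20, 2.27 and 1.94 CPM in the other 3 libraries. Its part in the Cd1d1 value was not tested.

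Cd1d1 supplied most of the reads counted for the CD1d pair. Its share of the counts of both genes was 73.6% in WT 1, 68.4% in WT 2, 72.3% in KO 1 and 66.1% in KO 2. The Wilson 95% intervals were 72.0% to 75.1%, 66.7% to 70.0%, 70.7% to 73.8% and 64.3% to 67.9% in that order. Within each group the 2 libraries differed by more than these counting intervals, while the groups overlapped. The shares are not corrected for length or for reads lost to shared sequence. Per kilobase of main coding transcript (1946 and 1243 bases), the means over the libraries were 34.1 for Cd1d1 and 22.7 for Cd1d2. Cd1d2 itself measured 25.1 and 31.7 CPM in the WT pair against 26.6 and 29.6 CPM in the KO pair, a log2 change of -0.01 (SE 0.11).

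Genes for CD1d assembly and sorting gave no call. All 18 listed genes were tested, with Cd1d1 and Cd1d2 among them. Of these 9 were higher and 9 lower in KO, with a median log2 change of 0.001 against -0.0001 over all tested genes, and 0 were called (0 at an unadjusted p under 0.05, and 0 by DESeq2 or the edgeR likelihood ratio test). B2m, the light chain of CD1d, measured 219 and 230.0 CPM in the WT pair against 222 and 238 CPM in the KO pair (log2 change 0.03, SE 0.05). Mttp, the lipid transfer protein that loads CD1d in the endoplasmic reticulum, stood at 4.39, 4.31, 3.96 and 4.51 CPM in WT 1, WT 2, KO 1 and KO 2. The clathrin adaptor subunit Ap2m1 had a log2 change of -0.05 (SE 0.05). Ap3b1, a subunit of the adaptor AP-3 that sends mouse CD1d to lysosomes, had one of -0.03 (SE 0.05). Cd74, named after its values were seen, had the largest log2 change of the list, 1.56 (SE 1.23, adjusted p = 0.784). It reached an adjusted p of 8.21e-06 without KO replicate 1, where KO replicate 2 stands alone.

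**Figure D2:**
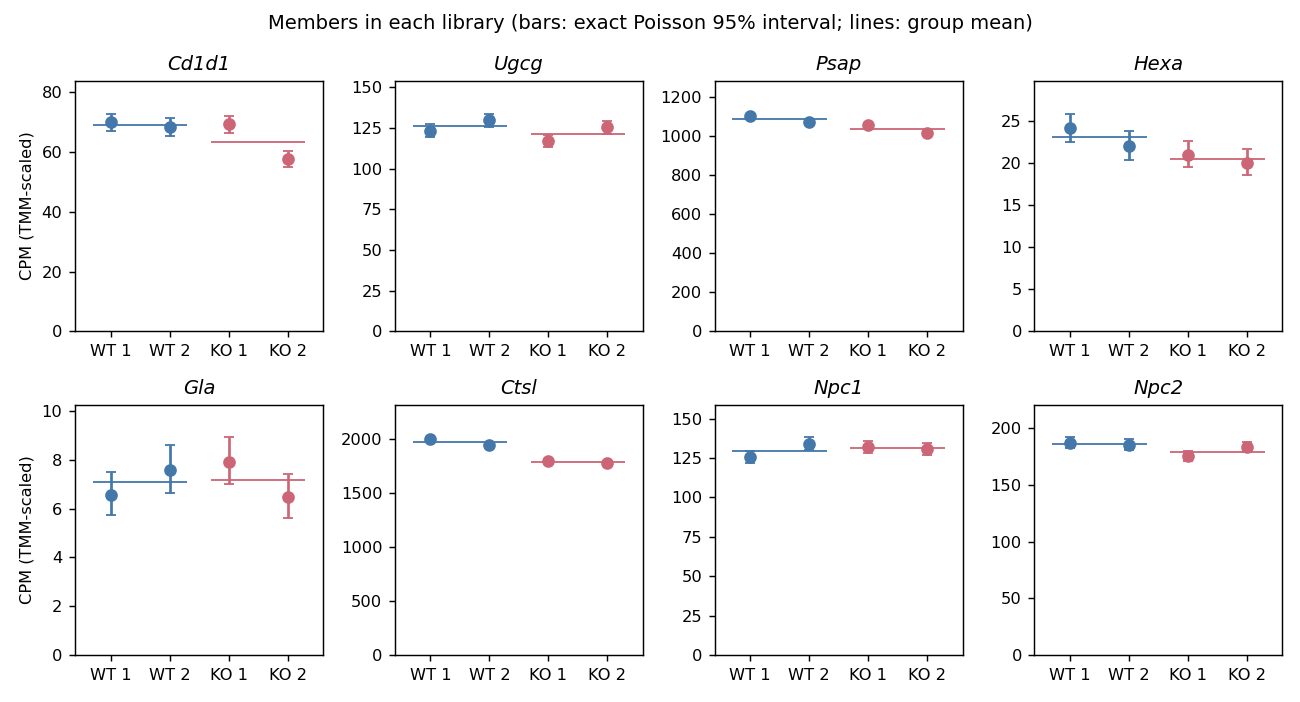
CPM of each member in the 4 libraries, on axes that start at 0. Points are libraries, bars their exact Poisson 95% intervals and horizontal lines the group means. Cd1d1 is low in KO replicate 2 (57.8 CPM), and both KO libraries lie below both WT libraries for Psap, Hexa, Ctsl and Npc2. Among all tested genes, 20.1% were lower in KO without overlap and 40.5% did not overlap in either direction.

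Ugcg (ENSMUSG00000028381, plus strand of chromosome 4 from 59189257 to 59222833, 9 exons) encodes ceramide glucosyltransferase, which makes the glucosylceramide that starts most glycosphingolipids. It measured 123 and 129.7 CPM in the WT pair against 117 and 125 CPM in the KO pair. KO replicate 2 lay between the WT libraries, so the groups overlapped. WT averaged 126 ± 4.49 CPM and KO 121 ± 5.93 CPM (SD, n = 2), and the log2 change was -0.06 (SE 0.06, edgeR adjusted p = 0.782; 95% interval of the difference -12.3% to 4.62%).

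Around Ugcg, 15 of 21 listed genes of ceramide and glycosphingolipid synthesis were tested, 8 higher and 7 lower (46.7% lower, against 50.1% of all tested genes). The median log2 change was 0.003, and 0 were called. At an unadjusted p under 0.05 there was 1 (against 8.40% of all tested genes), and 0 were called by DESeq2 or the likelihood ratio test. That 1 gene was Cert1, listed as Col4a3bp in the annotation, which carries ceramide from the endoplasmic reticulum to the Golgi. Cert1 measured 146 and 158 CPM in the WT pair against 172 and 169 CPM in the KO pair, so both KO libraries were higher (log2 change 0.17, SE 0.05, adjusted p = 0.526). Without WT replicate 2 its adjusted p was 0.0329. Sptlc2, a subunit of the enzyme that starts sphingolipid synthesis, had a log2 change of -0.06 (SE 0.06). Branches of the pathway differed in level. A4galt, the globotriaosylceramide synthase, and B3galnt1, the globoside synthase, had 0 counts in each library, which allows up to 0.0880 to 0.0988 CPM. Ugt8a and Gal3st1, of the galactosylceramide and sulfatide branch, and Sgms2 were also at 0 counts, and B4galt6 had 3 counts in all. B4galnt1, which adds the N-acetylgalactosamine of GM2 and asialo-GM2, measured 113 and 107 CPM in the WT pair against 106 and 110.0 CPM in the KO pair. St3gal5, the GM3 synthase, stood at 0.733 to 1.42 CPM. RNA of the ganglio-series transferase was thus plentiful in these libraries while RNA of the globo-series enzymes was not detected at this depth.

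Psap (ENSMUSG00000004207, plus strand of chromosome 10 from 60277627 to 60302597, 15 exons) encodes prosaposin, the precursor of saposins A to D, which lift lipids from membranes for hydrolases and exchange lipids on CD1d. It measured 1101 and 1069.8 CPM in the WT pair against 1055 and 1014 CPM in the KO pair. Both KO libraries lay below both WT libraries. The means, 1085.5 ± 22.2 and 1034.5 ± 28.9 CPM (SD, n = 2), gave a log2 change of -0.07 (SE 0.05, edgeR adjusted p = 0.696). The 95% interval of the difference ran from -11.5% to 2.66%.

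Hexa (ENSMUSG00000025232, plus strand of chromosome 9 from 59539667 to 59565105, 14 exons) encodes the alpha subunit of beta-hexosaminidase, which takes the terminal N-acetylgalactosamine off GM2. It measured 24.1 and 22.0 CPM in the WT pair against 20.98 and 20.0 CPM in the KO pair. Both KO libraries were lower, but the Poisson intervals of WT replicate 2 (20.4 to 23.8) and KO replicate 1 (19.5 to 22.6) overlapped. The log2 change was -0.17 (SE 0.09, adjusted p = 0.633; 95% interval -22.4% to 1.71%), the most negative of the 8 members. Its exons share 255 bases with Tmem202 on the opposite strand, a gene with 1 count in all 4 libraries. Gm2a, which presents GM2 to this enzyme, measured 19.2 and 18.4 CPM in the WT pair against 20.3 and 19.4 CPM in the KO pair (log2 change 0.08, SE 0.08).

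Gla (ENSMUSG00000031266, minus strand of chromosome X from 134588149 to 134601125, 7 exons) encodes alpha-galactosidase A, which removes terminal alpha-linked galactose, the sugar linkage of the strongest iNKT antigens. It measured 6.58 and 7.57 CPM in the WT pair against 7.92 and 6.46 CPM in the KO pair. The lowest and the highest value were both in KO, so the groups overlapped fully. The log2 change was 0.03 (SE 0.16, edgeR adjusted p = 0.974). With 205 to 270 counts a library, counting error alone was 6.09% to 6.98%, and the 95% interval of the difference, -20.3% to 29.9%, was the widest of the members.

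All 14 genes of lysosomal glycosphingolipid breakdown were tested, with Hexa, Gla and Psap among them. Of these 4 were higher and 10 lower in KO (71.4% lower, against 50.1% of all tested genes). The median log2 change was -0.03, and 0 were called. At an unadjusted p under 0.05 there was 1 (against 8.40% of all tested genes), and 0 were called by DESeq2 or the likelihood ratio test. The 1 gene was Neu1, the lysosomal sialidase, at 76.2 and 79.2 CPM in WT and 70.7 and 69.5 CPM in KO (log2 change -0.15, SE 0.05, adjusted p = 0.547). Glb1, the beta-galactosidase of GM1, measured 52.7 and 51.8 CPM in the WT pair against 45.8 and 49.96 CPM in the KO pair (log2 change -0.13, SE 0.06, adjusted p = 0.633). Galc, the galactosylceramidase helped by saposin A, had a log2 change of 0.20 (SE 0.20), with WT libraries at 8.56 and 5.83 CPM and KO libraries at 7.28 and 9.27.

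**Figure D3:**
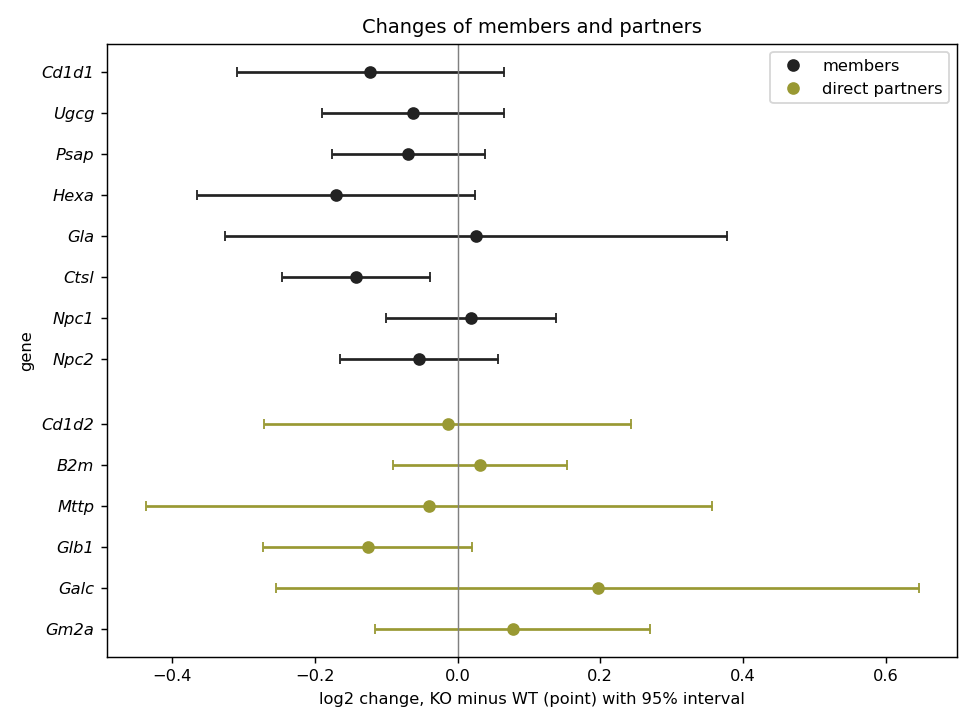
Log2 change of each member (black) and of 6 partner genes (olive), KO minus WT, with the 95% interval from the quasi-likelihood fit. Every interval except that of Ctsl crosses 0, and those of Gla, Galc and Mttp are the widest.

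Ctsl (ENSMUSG00000021477, minus strand of chromosome 13 from 64363214 to 64370306, 8 exons) encodes cathepsin L, a lysosomal cysteine protease that thymocytes need for CD1d presentation to iNKT cells. It measured 1998 and 1941 CPM in the WT pair against 1794 and 1775 CPM in the KO pair, from 56319 to 65599 counts a library. Both KO libraries lay below both WT libraries. The means, 1969.5 ± 40.7 and 1785 ± 13.4 CPM (SD, n = 2), gave a log2 change of -0.14 (SE 0.05). The interval of the difference, -15.7% to -2.66%, left out 0, and the unadjusted p was 0.0126. That is rank 315 among 13281 genes, and the adjusted p was 0.526. Without WT replicate 2 the adjusted p was 0.0630, its lowest over the 10 alternatives. The adjusted p in the authors' deposited table is 0.352. Ctsl is also a gene of thymic cortical epithelium. Of 8 epithelial markers, Foxn1, Psmb11, Prss16, Krt5 and Krt8 had 1, 4, 11, 2 and 0 counts over all 4 libraries, and their summed level was 0.0914 and 0.132 CPM in WT and 0.0587 and 0.284 CPM in KO. Epcam, Ccl25 and Ly75 of that list were tested and had log2 changes of -0.31, -0.25 and -0.06.

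Among the other lysosomal proteases, the cathepsin genes Ctsd and Ctsb had log2 changes of -0.08 and -0.09. Ctsa, Ctsz and Ctsc had log2 changes of -0.02, -0.02 and 0.035. The naming rule did not pick these cathepsin genes. The list of 11 had 10 tested genes with Ctsl among them, 3 higher and 7 lower (70% lower, against 50.1% of all tested genes). The median log2 change was -0.02, and 0 were called. At an unadjusted p under 0.05 there was 1, which was Ctsl (against 8.40% of all tested genes). DESeq2 and the likelihood ratio test called 0. Tpp1, tripeptidyl peptidase, measured 104 and 105 CPM in the WT pair against 98.3 and 98.7 CPM in the KO pair (log2 change -0.08, SE 0.05). Ifi30, a thiol reductase of antigen-presenting cells, stood at 4.72, 3.82, 4.72 and 6.81 CPM in WT 1, WT 2, KO 1 and KO 2 (log2 change 0.43, SE 0.21). Ctss, the cathepsin typical of those cells, was at 1.43, 1.153, 0.792 and 3.25 CPM in the same order, and is named after its values were seen. Both were highest in KO replicate 2.

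Npc2 (ENSMUSG00000021242, minus strand of chromosome 12 from 84754560 to 84773112, 4 exons) encodes the soluble lysosomal protein that hands cholesterol to NPC1. It measured 187 and 185 CPM in the WT pair against 176 and 183 CPM in the KO pair. Both KO libraries were lower, KO replicate 2 only narrowly. The means, 186 ± 1.31 and 179 ± 5.50 CPM (SD, n = 2), gave a log2 change of -0.05 (SE 0.05, edgeR adjusted p = 0.782; 95% interval -10.8% to 3.997%).

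Npc1 (ENSMUSG00000024413, minus strand of chromosome 18 from 12189693 to 12236400, 25 exons) encodes the membrane protein that exports cholesterol from late endosomes. It measured 125 and 134 CPM in the WT pair against 132 and 131 CPM in the KO pair. Both KO libraries lay between the WT libraries. The log2 change was 0.02 (SE 0.05, adjusted p = 0.938; 95% interval -6.77% to 10.1%). Its exons share 511 bases with Rmc1 on the opposite strand, so without a stated strand setting some reads may belong to either gene.

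Lipid transfer proteins and lipases of the lysosome were evenly split. All 10 listed genes were tested, with Npc1, Npc2 and Psap among them. Of these 5 were higher and 5 lower, at a median log2 change of -0.007, and 0 were called (0 at an unadjusted p under 0.05, and 0 by DESeq2 or the likelihood ratio test). Pla2g15, the lysosomal phospholipase that shapes the lipids CD1d can bind, stood at 14.5, 14.8, 14.8 and 15.6 CPM in WT 1, WT 2, KO 1 and KO 2 (log2 change 0.05, SE 0.09).

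Over the 8 members, 6 had a negative and 2 a positive log2 change, with a median of -0.07. Among all tested genes 50.1% were negative. The groups did not overlap for 4 members (Psap, Hexa, Ctsl and Npc2), all lower in KO, where 20.1% of all tested genes were lower without overlap, and 0 members were higher without overlap (20.4%; 40.5% in either direction). At an unadjusted p under 0.05 there was 1 member, Ctsl, lower in KO, against 8.40% of all genes in either direction and 4.01% lower in KO. The edgeR quasi-likelihood test called 0 members, and so did DESeq2 and the likelihood ratio test. The 79 tested genes of the lists that are not members had 40 higher and 39 lower values and a median log2 change of 0.001. Their groups did not overlap for 17 lower and 12 higher genes (21.5% and 15.2%), close to the shares over all tested genes.

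**Figure D4:**
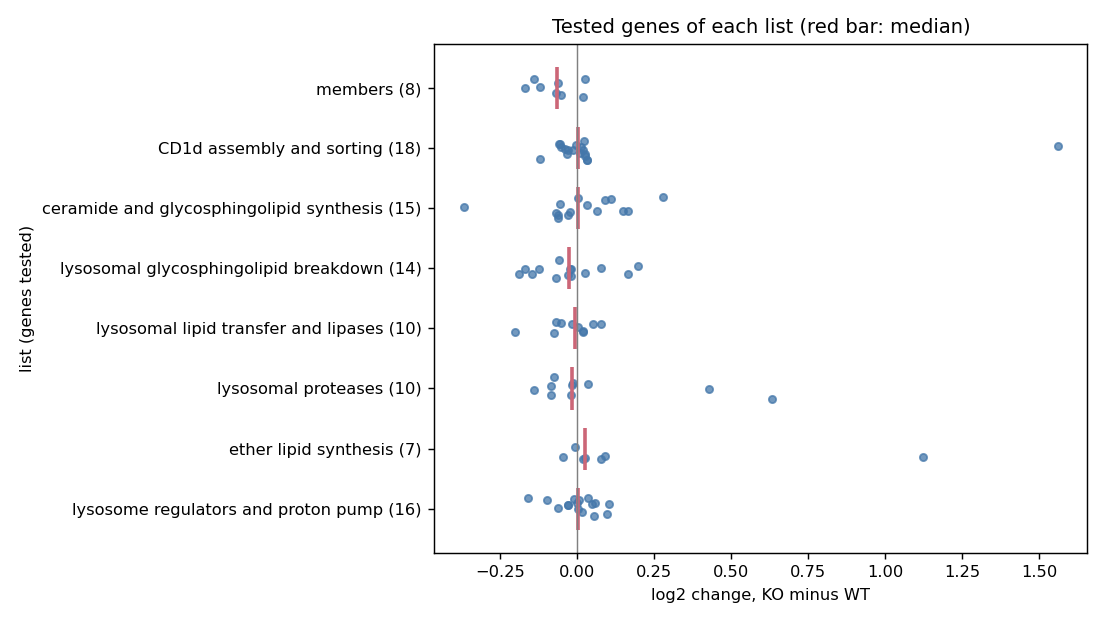
Log2 change (KO minus WT) of each tested gene of the lists, with the number tested in brackets and the list median as a red bar. Genes are spread vertically at random within a list. Medians lie between -0.07 for the members and 0.02 for ether lipid synthesis; the outlying points are Cd74 (1.56) and Far2 (1.12).

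Ether lipids made with peroxisomal enzymes are among the self lipids that CD1d displays in the thymus. Of 7 such genes 5 were higher (71.4%, against 49.9% of all tested genes) and 2 lower, with a median log2 change of 0.02. Agps, the alkyl-dihydroxyacetone phosphate synthase, measured 95.5 and 96.1 CPM in the WT pair against 101 and 101 CPM in the KO pair (log2 change 0.08, SE 0.05). Far2, a fatty acyl-CoA reductase, stood below 1 CPM in every library, with a log2 change of 1.12 (SE 0.58) that was 0.36 without KO replicate 1. Among 16 lysosome regulators and proton pump genes 9 were higher and 7 lower, with a median of 0.003. Lamp2, a lysosomal membrane protein, measured 53.95 and 54.7 CPM in the WT pair against 57.6 and 59.1 CPM in the KO pair (log2 change 0.10, SE 0.06). Tfe3, a transcription factor of lysosomal genes that reads the E-box, measured 18.5 and 20.0 CPM in the WT pair against 16.6 and 17.8 CPM in the KO pair (log2 change -0.16, SE 0.09). In both lists 0 were called, with 0 at an unadjusted p under 0.05 and 0 by DESeq2 or the likelihood ratio test.

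Of 13 myeloid markers 10 were highest in KO replicate 2, the library with the lowest Cd1d1, and Cst3, Cd68 and Fcer1g were not. Cst3, the cystatin C gene and the most abundant of them, measured 58.98 and 60.6 CPM in the WT pair against 56.5 and 50.8 CPM in the KO pair, so it was lowest in that library (log2 change -0.16, SE 0.07, edgeR adjusted p = 0.581). Cst3 was under an unadjusted p of 0.05. Fcer1g, an Fc receptor chain, was lower in both KO libraries (log2 change -0.33, SE 0.38). The 2 markers and 2 pathway genes given next were chosen after their values were seen. Lyz2, the macrophage lysozyme, stood at 14.9 times the WT mean in KO replicate 2, and Mpeg1, a macrophage pore-forming protein, at 3.76 times. Cd74 stood at 5.24 times and Ctss at 2.51 times. In KO replicate 1 these 4 genes stood at 1.39, 0.763, 0.708 and 0.613 times the WT mean. Summed over the 10 of 13 myeloid markers below 5 CPM in WT, the level was 3.23 and 2.14 CPM in WT and 2.02 and 13.3 CPM in KO. Over all 13 markers it was 78.6 and 78.7 CPM in WT and 74.5 and 81.3 CPM in KO, since Cst3 alone stood at 50.8 to 60.6 CPM. None of the 13 was at 0 counts in all libraries. Low B cell markers (5 of 6) summed to 1.68 and 1.42 CPM in WT and to 2.17 and 3.31 CPM in KO. Low markers of iNKT and mature T cells (6 of 7) summed to 5.48 and 3.92 CPM in WT and to 3.29 and 9.30 CPM in KO. Of these 7 markers, 4 were highest in KO replicate 2: Il2rb, S1pr1, Cxcr6 and Klf2. Zbtb16, Klrb1c and Tbx21, with 11, 14 and 162 counts over all libraries, were not. Klrb1c had 7 and 6 counts in WT against 0 and 1 in KO. Zbtb16 had 1 and 6 counts in WT against 0 and 4 in KO, and Tbx21 had 63 and 24 against 44 and 31. Among the low markers, Il2rb and S1pr1 had the most counts in KO replicate 2, 152 and 86. The part of all these markers in the values of the members was not tested. Without KO replicate 2, the log2 changes of Ctsl, Psap, Hexa and Npc2 were -0.14, -0.04, -0.14 and -0.09. In these bulk libraries fewer cells of a type and less RNA per cell cannot be told apart.

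**Figure D5:**
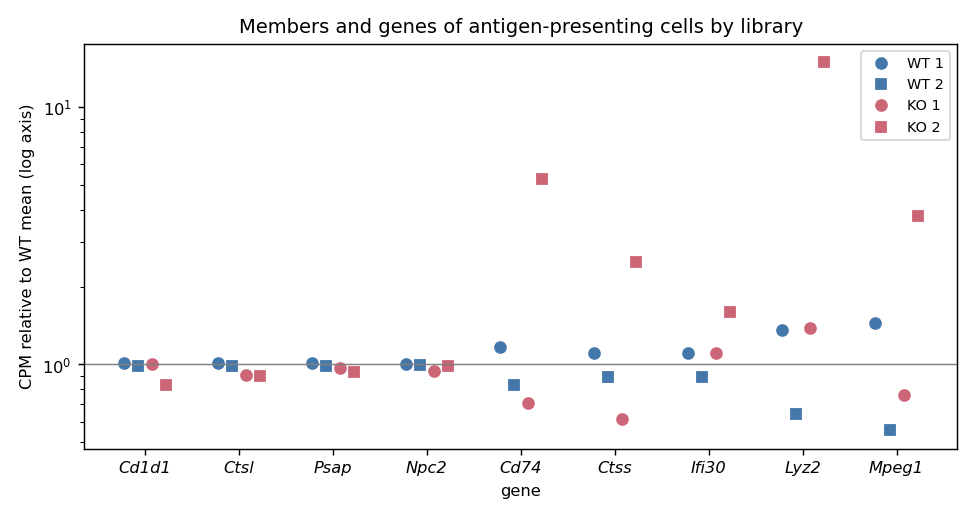
CPM of 4 members and 5 genes of antigen-presenting cells relative to the WT mean, on a log axis, for each of the 4 libraries. KO replicate 2 (red squares) stands at 14.9 times for Lyz2 and 5.24 times for Cd74, and at 0.835 times for Cd1d1, while Ctsl is low in both KO libraries (0.911 and 0.901 times) and Npc2 is lowest in KO replicate 1 (0.942 times).

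The genes whose values across the 4 libraries were most like those of Cd1d1 were Junb, Ndufc2 and Dera, an AP-1 subunit, a complex I subunit and an aldolase of deoxyribose phosphate. They were taken from 3922 genes within 2-fold of its mean level by the Euclidean distance of centred log2 CPM over the 4 libraries, which was 0.0244, 0.0293 and 0.0382. Junb stood at 36.5, 36.3, 36.3 and 29.9 CPM in WT 1, WT 2, KO 1 and KO 2. Like Cd1d1, all 3 were level in 3 libraries and low in KO replicate 2. With 4 libraries this is a description of values only.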

How the data were processed

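RNA-seq libraries of sorted DP thymocytes, 2 KO and 2 WT, were grouped by the sample titles. The submitters' processing notes name Trimmomatic 0.33, STAR 2.5.2, HTSeq and the build mm10. The sources used here do not give the annotation release, counting mode or strand setting. The authors deposited raw counts for each Ensembl gene, and the table of the series and the library files hold the same values (0 differing cells). The authors' deposited edgeR table adds CPM values (counts scaled by the library total), log2 fold changes, a likelihood ratio score, and p-values with adjusted p-values.

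The fit was edgeR 4.0.16 in R 4.3.3: genes kept by filterByExpr at a minimum count of 10 and a total of 15, TMM factors, a robust quasi-likelihood F test with group as the only term, Benjamini-Hochberg adjustment over 13281 genes, threshold 0.05. HTSeq's summary lines were left out. Reads in no gene were 17.2% and 18.6% of unique reads in the WT pair against 20.6% and 19.9% in the KO pair. The standard error of a log2 change is its size over the root of F, and 95% intervals use the fit's degrees of freedom. With 2 mice a group, a p-value sets the group difference against a variance that is partly borrowed from other genes. The median prior degrees of freedom were 6.776. The script was tested on simulated data. Alternatives were DESeq2 1.42.0, edgeR's likelihood ratio test, no TMM factors, no filter, at least 1 CPM in at least 2 libraries, a replicate block and leaving out each library. GENCODE M21 gave symbols to 42462 identifiers, and the authors' table to 46 more. Main coding transcripts are GENCODE M21 principal transcripts within 200 bases of the deposited gene bounds.

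The members and lists were chosen with earlier results of these data known. Some partner genes are not reported here. Named genes were the members, direct partners of members, and per list the 2 tested non-members of smallest p without overlap of the groups. Each marker list added the gene of highest mean CPM and the gene of largest range in CPM. That range is not relative to the level, and both rules gave the same gene in each list. Of these marker genes, Rag1, Cd79b and Klf2 had log2 changes of 0.12, 0.02 and -0.01, and Cst3 one of -0.16.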

Additional observations from a re-analysis of the deposited data

How the results depend on the processing

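No member was called under any of the 10 alternatives. The number of genes called over the whole table moved from 3 to 22 with DESeq2, 101 with the likelihood ratio test, 191 with no filter on low counts and 27 with the replicate block. It ran from 41 to 365 when each library was left out, in fits that give a lone library the spread of the other group. Among all genes of the lists 0 to 1 were called when a library was left out: Cert1 without WT replicate 2 and Cd74 without KO replicate 1. The cause was not tested. Replicate numbers pair the libraries by name only: the correlation across genes of the replicate difference in WT with that in KO was 0.0912, and the block called no member.

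The direction of some genes turned with the library left out. Log2 changes ran from -0.26 to 0.0008 for Cd1d1, -0.13 to 0.16 for Gla, -0.0318 to 0.0619 for Npc1, -0.18 to 0.16 for Cd1d2, -0.0196 to 0.0779 for B2m, -0.14 to 0.0487 for Mttp, -0.0558 to 0.50 for Galc, -0.0714 to 0.10 for Cd79b, -0.56 to 0.40 for Klf2 and -0.5018 to 2.382 for Cd74. Ctsl (-0.17 to -0.125), Hexa (-0.24 to -0.11), Psap (-0.10 to -0.04), Ugcg (-0.11 to -0.02) and Npc2 (-0.09 to -0.03) kept their direction under all 10. Rag1, a DP marker, was called without WT replicate 2 (0.24).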
